A study of Mus musculus with 79 samples.

Results

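The genes described here are 9 Toll-like receptors (Tlr1, Tlr2, Tlr3, Tlr4, Tlr6, Tlr7, Tlr8, Tlr9 and Tlr13) and Cd14. These 10 rows were taken by symbol from the 23361 genes of each of 3 count tables, 1 for sorted macrophages, 1 for sorted Schwann cells and 1 for distal nerve stump. All animals were mice carrying S100β-eGFP, a green fluorescent protein under a human S100β promoter that marks Schwann cells. The common peroneal nerve was sutured through a silicone conduit to the distal stump of the tibial nerve, either at once (immediate repair, after a sham incision 8 weeks earlier) or 8 weeks after the tibial nerve had been cut (delayed repair). Macrophages (CD16/32, CD11b, F4/80 and CD14 positive) and Schwann cells (GFP positive and negative for those markers) were sorted from the conduit at day 5 and day 14 after repair, and the stump was taken at day 5. Macrophages comprised 8 immediate and 9 delayed animals at day 5, and 8 immediate and 7 delayed at day 14. The Schwann cell gate comprised 7 and 9 animals at day 5, and 8 and 7 at day 14, and the stump 7 and 9. Both sexes were present in every group, and the animals' age was not given in the sources used here. The 79 libraries came from 32 mice, 31 of which gave both sorted populations.

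Toll-like receptors are membrane proteins that bind molecules of microbes and of damaged cells and switch on the transcription factor NF-κB and interferon regulatory factors. TLR2 pairs with TLR1 or TLR6 at the cell surface to bind lipoproteins, and TLR4 binds lipopolysaccharide with MD-2 (Ly96) after CD14 has handed the ligand over. TLR3 (double-stranded RNA), TLR7 and TLR8 (single-stranded RNA), TLR9 (unmethylated DNA) and TLR13 (bacterial ribosomal RNA) sit in endosomes and need the transporter UNC93B1 to get there. In cut nerve, receptors of this family on macrophages and Schwann cells take part in the early response to debris.

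Library totals ran from 14928745 to 28499407 counts in macrophages, from 11614940 to 30796823 in the Schwann cell gate and from 3898778 to 9212709 in the stump. Levels are given as CPM, a gene's count scaled by the total of its library, and 3 counts equal at most 0.201, 0.258 and 0.769 CPM in the 3 tables. The macrophage label was borne out by 12 macrophage markers, which summed to between 15225 and 36605 CPM. The Schwann cell gate went against its label, since 10 dendritic cell markers summed to between 4027 and 19933 CPM and exceeded the sum of 10 Schwann cell markers (164 to 3496 CPM) in 31 of 31 libraries. Macrophage markers in that gate ranged from 241 to 11168 CPM (median 1638), and 6 fibroblast markers from 14.7 to 19893 CPM (median 2252). Neutrophil markers reached 9611 CPM in 1 library of day 14 after immediate repair, where the group's median was 28.7 CPM. The population is therefore called the Schwann cell gate here, and not Schwann cells.

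In the distal stump, all 10 genes had higher mean levels after delayed repair, and 8 of them passed the test: Tlr1, Tlr2, Tlr3, Tlr6, Tlr7, Tlr8, Tlr9 and Tlr13 rose, none fell, and Tlr4 and Cd14 did not pass. Among all 12229 genes tested in the stump 26.3% were called, 12.8% as higher after delayed repair. The median log2 fold change was 0.72 over the members and 0.02 over all genes. Tests are edgeR's quasi-likelihood test with Benjamini-Hochberg adjustment over all genes, called at an adjusted p under 0.05, and log2 fold changes are given with their standard error (SE).

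**Figure D1:**
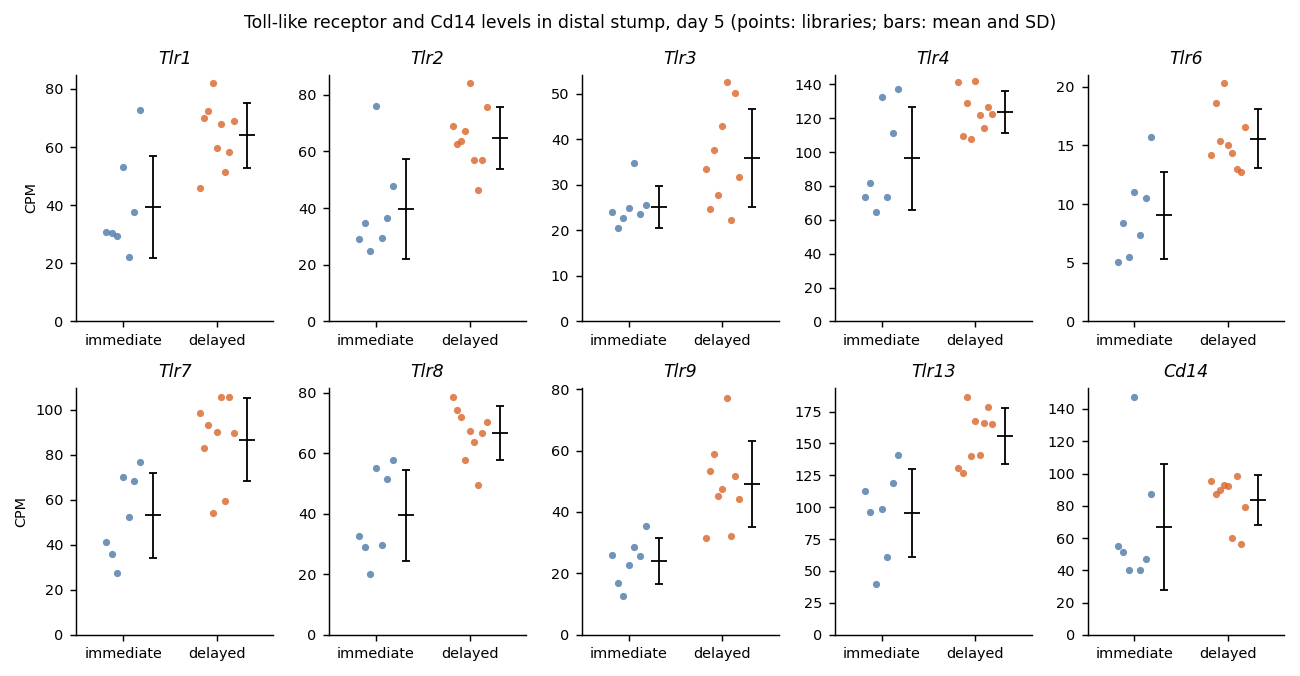
Levels (CPM) of the 10 genes in each distal stump library at day 5, with 7 immediate and 9 delayed libraries as points and the mean and SD as bars. The 2 groups overlapped for every gene, and 1 immediate library held the highest Cd14 level of all 16 at 147 CPM.

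Tlr9 had the largest change. Its stump levels were 12.8 CPM at the lowest, 25.7 at the median and 35.4 at the highest after immediate repair, and 31.4, 47.4 and 77.2 CPM after delayed repair. All 9 delayed libraries lay above the immediate mean of 24.0 CPM, although the lowest delayed values overlapped the highest immediate one. The log2 fold change was 1.05 (SE 0.21, adjusted p = 0.00161).

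The surface receptors for lipoproteins rose together. Tlr2, the shared partner, ranged from 24.7 through a median of 34.6 to 75.9 CPM after immediate repair and from 46.4 through 63.6 to 84.0 CPM after delayed repair, a log2 fold change of 0.72 (SE 0.20, adjusted p = 0.0146). Its highest immediate library, replicate 4, lay within the delayed range. Tlr1 ranged from 22.3 to 72.6 CPM (median 30.7) against 46.0 to 81.9 CPM (median 68.0), with a log2 fold change of 0.72 (SE 0.21, adjusted p = 0.0158). Tlr6 ranged from 5.04 to 15.7 CPM (median 8.35) against 12.8 to 20.3 CPM (median 15), with a log2 fold change of 0.78 (SE 0.20, adjusted p = 0.00779). For each of these 3 genes all 9 delayed libraries were above the immediate mean and only the upper immediate libraries reached the delayed group.

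Tlr4 and Cd14, the members that act on lipopolysaccharide, did not pass. Whether their changes differed from those of the other members was not tested. Tlr4 lay between 64.3 and 137 CPM (median 81.8) after immediate repair and between 107 and 142 CPM (median 123) after delayed repair, with a log2 fold change of 0.38 (SE 0.15, adjusted p = 0.0733). Cd14 lay between 39.9 and 147 CPM (median 51.2) and between 56.3 and 98.6 CPM (median 89.9), with a log2 fold change of 0.34 (SE 0.25, adjusted p = 0.328). Immediate replicate 4 decided the Cd14 value: without it the log2 fold change was 0.66 (adjusted p = 0.00968), and that of Tlr4 was 0.47 (adjusted p = 0.0273). Leaving out immediate replicate 8 also brought Tlr4 past the threshold, at 0.48 (adjusted p = 0.0256).

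Among the endosomal receptors, Tlr8 went from a median of 32.7 CPM (20.1 to 57.9) to 67.6 CPM (49.6 to 78.8), a log2 fold change of 0.77 (SE 0.19, adjusted p = 0.00732). Tlr13, the highest of the receptors per kilobase in the stump, went from a median of 99.0 CPM (39.6 to 141) to 165 CPM (127 to 186), a log2 fold change of 0.73 (SE 0.20, adjusted p = 0.0123). Tlr7 went from 52.4 CPM (27.2 to 76.6) to 90.4 CPM (54.2 to 106), a log2 fold change of 0.73 (SE 0.21, adjusted p = 0.0177). The delayed groups of these 3 genes sat above the immediate mean in 9 of 9 libraries. Tlr3 went from 24.1 CPM (20.4 to 34.7) to 33.6 CPM (22.3 to 52.6), with a log2 fold change of 0.54 (SE 0.18, adjusted p = 0.0355). The Tlr3 call was lost when any of 10 single libraries was left out (immediate replicates 1, 2, 3, 4, 7 and 8 and delayed replicates 3, 5, 6 and 8), with adjusted p from 0.0521 to 0.0866, or with no filter on low counts (0.50, adjusted p = 0.0641), and 2 of 9 delayed libraries lay below the immediate mean.

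Markers of other cells moved in the stump as well, and in bulk tissue a change in the number of cells of a type cannot be told apart from a change in RNA per cell. Macrophage markers summed to between 1902 and 6678 CPM after immediate repair, the highest being replicate 4, and to between 4241 and 7147 CPM after delayed repair. Of the 12 macrophage markers tested 2 rose and 0 fell, of 10 dendritic cell markers 3 rose and 0 fell, of 5 endothelial markers 5 rose, and of 10 Schwann cell markers 9 fell. The 1 T cell marker tested rose as well (log2 fold change 1.27), and the 5 listed summed to between 1.86 and 18.6 CPM after immediate repair (median 4.71) and between 5.43 and 28.7 CPM after delayed repair (median 17.6). Neither the 1 B cell marker tested (0.89) nor the 1 plasmacytoid dendritic cell marker tested (0.53) was called. The sum of the listed B cell markers had a median of 5.04 CPM after immediate and 9.72 CPM after delayed repair. For the plasmacytoid list the medians were 7.71 and 13.1 CPM. With the mean log2 level of the macrophage markers as a covariate, an alternative chosen after the data were seen, 5 members stayed past the threshold: Tlr8 (log2 fold change 0.44, SE 0.09, adjusted p = 0.00465), Tlr9 (0.86, SE 0.22, adjusted p = 0.0126), Tlr6 (0.53, SE 0.16, adjusted p = 0.0243), Tlr2 (0.41, SE 0.14, adjusted p = 0.0402) and Tlr1 (0.47, SE 0.17, adjusted p = 0.0499). Tlr13 (0.43, adjusted p = 0.0644), Tlr7 (0.40, adjusted p = 0.0761), Tlr3 (0.52, adjusted p = 0.0877), Tlr4 (0.13) and Cd14 (0.06) did not pass. In that fit 2830 of all genes were called. The part of endothelial, dendritic, plasmacytoid dendritic, T, B and Schwann cells in these values was not tested.

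**Figure D2:**
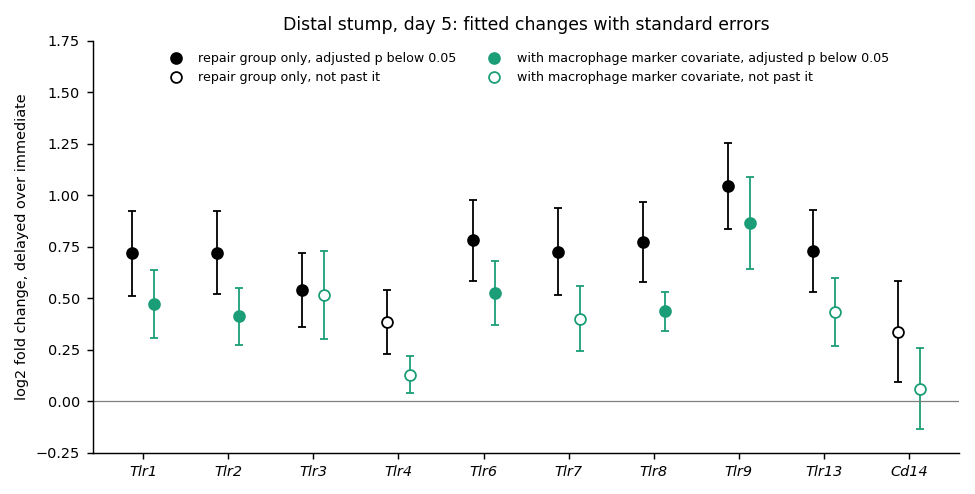
Log2 fold change of each gene in the stump, delayed over immediate repair, with its standard error as the bar, fitted on repair group only (black) and with the macrophage marker level as a covariate (green), filled where the adjusted p was under 0.05. All 10 values were lower with the covariate, 5 stayed past the threshold, and Cd14 went from 0.34 to 0.06.

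Other genes of the pathway changed in the stump too, in a list that was written with earlier results of these data known. Of 84 listed pathway genes 76 were tested, and 24 rose and 4 fell after delayed repair, beside 12.8% of all genes that rose and 13.5% that fell. Among the transcription factors 7 of 9 rose and none fell, led by the NF-κB subunits Relb (log2 fold change 0.56, adjusted p = 0.00115), Rel (0.67, adjusted p = 0.00150) and Nfkb1 (0.34, adjusted p = 0.00312). Among kinases and ubiquitin ligases 7 of 18 rose and 1 fell: Map3k8, a kinase that these receptors switch on, changed by 0.67 and Irak2 by 0.39, while Ikbkg, the regulatory subunit of the IκB kinase, changed by -0.35. Among the inhibitors 3 of 11 rose and none fell, namely Sigirr (0.78), Tnfaip3 (0.80) and Nfkbie (0.85), which damp the receptors or NF-κB. Among accessory and trafficking genes 3 of 10 rose and 1 fell, with Cd180, a receptor relative, at 0.80, Unc93b1 at 0.62 and Slc15a4 at 0.35. The endosomal proteases had 1 of 5 higher (Ctss, 0.69) and the adaptors 1 of 5 (Pik3ap1, 0.84). Endogenous ligands had 1 of 9 higher (the proteoglycan Bgn, 0.59) and 2 lower, Hspd1 (-0.50) and the acute phase gene Saa3 (-1.33). Of 8 induced targets tested 1 rose (Nfkbiz, 0.74).

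Sequence upstream of the receptors was read for 7 of the 10 genes, the exceptions being Tlr4, Tlr7 and Cd14, because 8 of the 10 genes rose in the stump. The 250 bases before each RefSeq start (GRCm38.p6, with 2 starts each for Tlr1 and Tlr6) were searched on both strands for 4 motifs, which can overlap: NF-κB by its usual consensus (found in 3.90% of 32851 promoter windows of this length), the interferon element GAAANNGAAA (2.98%), a PU.1 core GAGGAAGT (2.44%) and AP-1 as TGANTCA (6.75%). PU.1 is a factor that shapes myeloid cells, and AP-1 and NF-κB act downstream of these receptors. The 4 promoters shown each carry a different one of these motifs, with the match in capitals, 5′ to 3′ on the gene's strand. Tlr2 (chr3:83841609-83841858, minus strand) held 2 overlapping NF-κB matches starting at -173 and -172 from the start site.
Tlr2: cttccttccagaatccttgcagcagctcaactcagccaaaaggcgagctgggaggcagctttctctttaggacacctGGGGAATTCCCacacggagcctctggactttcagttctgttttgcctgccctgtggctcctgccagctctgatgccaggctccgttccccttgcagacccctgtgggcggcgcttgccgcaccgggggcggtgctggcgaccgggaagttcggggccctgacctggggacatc
Tlr9 (chr9:106222348-106222597, plus strand) held an AP-1 match at -58.
Tlr9: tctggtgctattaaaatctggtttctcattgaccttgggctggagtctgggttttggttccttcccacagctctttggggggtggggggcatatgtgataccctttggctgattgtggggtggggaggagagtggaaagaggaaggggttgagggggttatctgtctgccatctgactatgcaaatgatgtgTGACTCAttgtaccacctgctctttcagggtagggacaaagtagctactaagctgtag
Tlr1 (chr5:64933559-64933808, minus strand) held the PU.1 core at -23.
Tlr1: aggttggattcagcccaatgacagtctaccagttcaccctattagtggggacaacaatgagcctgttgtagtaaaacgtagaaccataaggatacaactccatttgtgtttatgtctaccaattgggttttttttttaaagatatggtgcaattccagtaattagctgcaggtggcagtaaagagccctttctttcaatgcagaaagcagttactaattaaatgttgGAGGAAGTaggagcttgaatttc
Tlr6 (chr5:64959167-64959416, minus strand) held 2 overlapping interferon elements on the opposite strand, at -116 and -110.
Tlr6: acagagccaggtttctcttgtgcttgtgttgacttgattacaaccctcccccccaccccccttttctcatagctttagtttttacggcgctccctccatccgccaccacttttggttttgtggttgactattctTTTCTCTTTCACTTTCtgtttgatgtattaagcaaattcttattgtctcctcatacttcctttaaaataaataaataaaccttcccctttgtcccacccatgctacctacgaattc
Tlr3 held an NF-κB match at -211, and Tlr8, Tlr13 and the second starts of Tlr1 and Tlr6 held none of the 4 in these windows. A match is a run of letters and says nothing of binding.

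Tlr1 and Tlr6 are neighbours that share sequence, and their values are uncertain to that extent. Of the 85-base windows of their transcripts, 9.25% of those of Tlr1 and 8.29% of those of Tlr6 occurred word for word in the other gene. The longest shared stretch had 229 bases within 1 coding exon of each, at chr5:64925537-64925765 in Tlr1 and chr5:64953828-64954056 in Tlr6, both on the minus strand. Its first 120 bases (chr5:64925646-64925765 and chr5:64953937-64954056), identical in both genes, are shown because reads from them could be assigned to either.
Tlr1 and Tlr6: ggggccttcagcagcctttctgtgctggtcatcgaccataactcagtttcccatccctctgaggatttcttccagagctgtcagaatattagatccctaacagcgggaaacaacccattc
Tlr3 shared 3.89% of its windows with Gm45542, an antisense gene that overlaps its exons, and the sorted cell libraries were not stated to keep strand. The other 7 genes shared none.

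In macrophages Cd14 and Tlr2 lay above the other members in every library per kilobase of exon. On that scale Cd14 stood at 4782 CPM per kb (SD 881, n = 17) at day 5 and 3754 (SD 536, n = 15) at day 14, and Tlr2 at 315 (SD 90.1) and 279 (SD 49.1). Tlr13 followed at 28.5 and 27.4 CPM per kb, then Tlr7 (17.9 and 17.7), Tlr1 (14.2 and 19.4) and Tlr4 (11.6 and 13.8), whose order was not fixed: Tlr1 lay above Tlr7 in 9 of 15 libraries at day 14, and Tlr7 above Tlr1 in 13 of 17 at day 5. Tlr8 (5.71 and 8.01), Tlr6 (3.26 and 3.62) and Tlr3 (1.8 and 1.8) were low. Tlr9 was near the floor at 0.140 and 0.268 CPM per kb, and 2 of 17 day 5 libraries had no count.

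The stump kept another order. Per kilobase, Cd14 was at 46.5 CPM per kb (SD 17.3, n = 16), Tlr13 at 31.9 (SD 10.1) and Tlr4 at 20.4 (SD 4.65), while Tlr7 (18.2), Tlr2 (17.8) and Tlr1 (17.1) were close: Tlr7 lay above Tlr2 in 9 of 16 libraries and Tlr2 above Tlr1 in 8 of 16. Tlr9 was at 11 CPM per kb (SD 4.90) in the stump and below 1 in both sorted populations. Stump RNA was depleted of ribosomal RNA and sorted cell RNA was amplified, so library method and tissue cannot be told apart in such a contrast, and it was not tested.

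**Figure D3:**
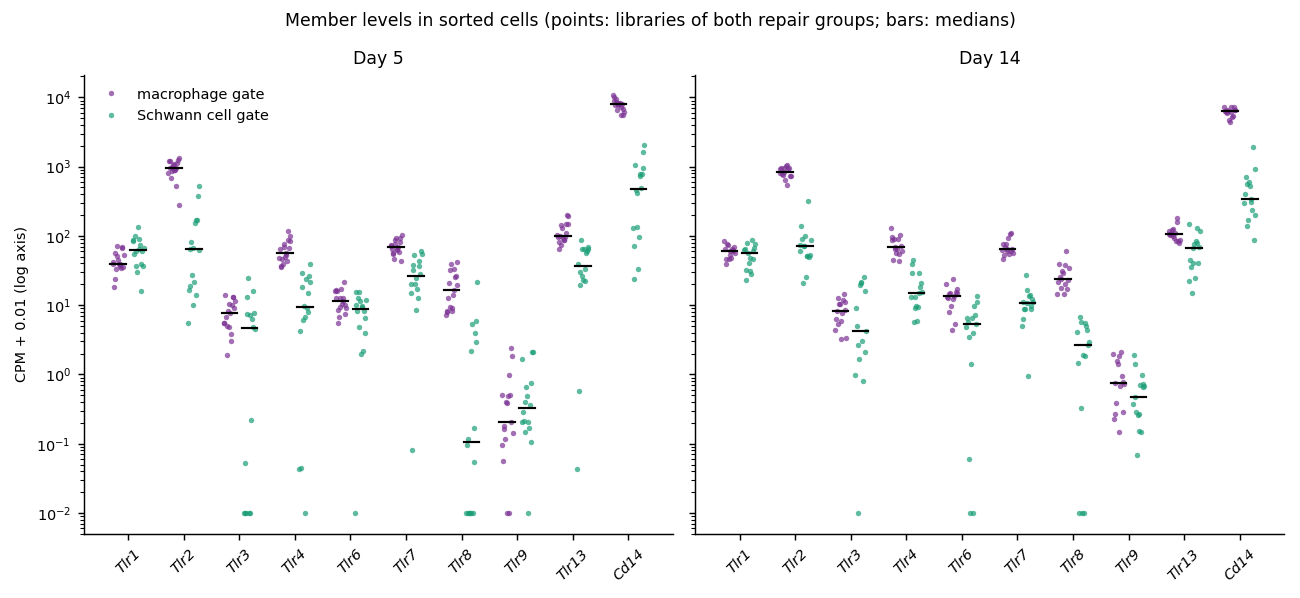
Levels of the 10 genes (CPM plus a small offset, log axis) in macrophages and in the Schwann cell gate at day 5 and day 14, with libraries of both repair groups as points and medians as bars. Cd14, Tlr2 and Tlr4 stood lower in the Schwann cell gate at both days, while the Tlr1 points of the 2 gates overlapped widely.

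Macrophages showed no member past the threshold between delayed and immediate repair, at either day. At day 5, 0 of 9 members tested were called by edgeR and 0 by DESeq2 (3 of all 8409 genes, 0.0357%, were called by edgeR), and 2 members had an unadjusted p under 0.05. Cd14 lay between 6491 and 10664 CPM (median 8786) after immediate repair and between 5585 and 8194 CPM (median 7173) after delayed repair, a log2 fold change of -0.39 (SE 0.14, adjusted p = 0.805), and the groups overlapped. Tlr4 lay between 35.6 and 77.2 CPM (median 47.2) and between 43.2 and 119 CPM (median 67.3), a log2 fold change of 0.39 (SE 0.18, adjusted p = 0.923). Of 73 pathway genes tested none was called. All 11 induced targets had negative fitted values (median log2 fold change -0.55), while 52.9% of all genes had positive ones (median 0.01). That list was written with earlier results of these data known. The target with the smallest p was Il10, an inhibitory cytokine, at -0.99 (adjusted p = 0.288). At day 14, 0 of 9 members were called by edgeR or DESeq2, none had an unadjusted p under 0.05, and 0.0% of 8589 genes were called. Member values at day 14 ran from -0.20 (Tlr4) to 0.32 (Tlr7).

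From day 5 to day 14, Cd14 fell in macrophages after immediate repair. Its levels went from a median of 8786 CPM (6491 to 10664) to 6220 CPM (4465 to 7186), with all 8 day 14 libraries below the day 5 mean of 8715 CPM, and the log2 fold change was -0.71 (SE 0.14, adjusted p = 0.00256). It was the only 1 of 9 members tested to be called, against 11.3% of 8507 genes. Since macrophages were sorted as CD14 positive at both days, the change is one among cells already chosen for the protein. Tlr2 went from a median of 967 CPM (674 to 1223) to 820 CPM (652 to 952), a log2 fold change of -0.39 (SE 0.13, adjusted p = 0.0505), which was past the threshold with DESeq2 (-0.40, adjusted p = 0.0201) and without day 5 replicate 1 (adjusted p = 0.0498), day 5 replicate 5 (adjusted p = 0.0167) or day 14 replicate 3 (adjusted p = 0.0482). Tlr4 (0.48, SE 0.20, adjusted p = 0.127) and Tlr1 (0.41, SE 0.22, adjusted p = 0.265) had positive values that did not pass, although Tlr4 did with library size scaling in place of TMM (0.62, adjusted p = 0.0465).

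Of 12 macrophage markers 1 rose and 3 fell over these days, of 3 dendritic cell markers tested 1 rose, and of 2 endothelial markers tested 1 fell. The 4 fibroblast markers tested had positive fitted values (median log2 fold change 1.95), none called, and their sum went from between 2.15 and 337 CPM to between 39.6 and 1269 CPM. The part of these cells in the Cd14 change and in the pathway genes that follow was not tested.

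Genes that these receptors induce fell over the same days. After immediate repair 8 of 10 induced targets fell and none rose, led by Il10 (log2 fold change -1.95, adjusted p = 1.44e-05), Il1b, the inflammatory cytokine interleukin 1β (-1.33, adjusted p = 8.54e-05), and Ptgs2, which makes prostaglandins (-2.40, adjusted p = 0.00011). Their median was -1.40, against 0.01 over all genes, of which 6.01% fell. Inhibitors had 5 of 9 lower (Nfkbia -0.90, Nfkbib -0.78, Tnfaip3 -0.89), transcription factors 3 of 9 (Relb -0.48, Irf7 -0.68, Nfkb2 -0.42), and endogenous ligands 3 of 7 lower (among them Vcan -1.60 and S100a8 -1.68) and 1 higher (Hspd1, 0.39). Endosomal proteases had 2 of 5 lower (Lgmn -0.55, Ctsl -0.69) and 1 higher (Ctsk, 0.94), and 1 of 17 kinases and ubiquitin ligases fell (Irak3, -0.76).

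After delayed repair no member was called between the days in macrophages. Of 9 tested, 0 passed with edgeR and 0 with DESeq2, 1 had an unadjusted p under 0.05, and 6.41% of 8529 genes were called. Cd14 went from a median of 7173 CPM (5585 to 8194) to 6543 CPM (5226 to 7323), a log2 fold change of -0.23 (SE 0.14, adjusted p = 0.356), and Tlr1 from 39.7 CPM (34.6 to 68.7) to 60.9 CPM (48.5 to 69.2), 0.33 (SE 0.14, adjusted p = 0.186). Of 12 macrophage markers 1 fell, of 3 dendritic cell markers tested 1 rose, of 2 endothelial markers tested 1 fell, and the 4 fibroblast markers tested had positive values (median log2 fold change 0.88), none called. Their part in these values was not tested. Induced targets had 3 of 10 lower and none higher: Il10 (-0.98), Cxcl1 (-1.34) and Ptgs2 (-1.52). Among the inhibitors 2 of 9 fell, Nfkbia (-0.67) and Socs1 (-0.79), and Ticam1, the adaptor of TLR3 and TLR4, rose (0.48, adjusted p = 0.0290).

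The interaction of repair and day was tested in macrophages over all 32 libraries, and 0 of 9 members were called by edgeR or DESeq2 (0.0223% of 8949 genes by edgeR), 1 with an unadjusted p under 0.05. The Cd14 interaction was 0.48 (SE 0.20, unadjusted p = 0.0189, adjusted p = 0.9999), and that of Tlr4 was -0.59 (SE 0.29, unadjusted p = 0.0522). The day change of Cd14 is therefore not shown to differ between the repair groups.

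**Figure D4:**
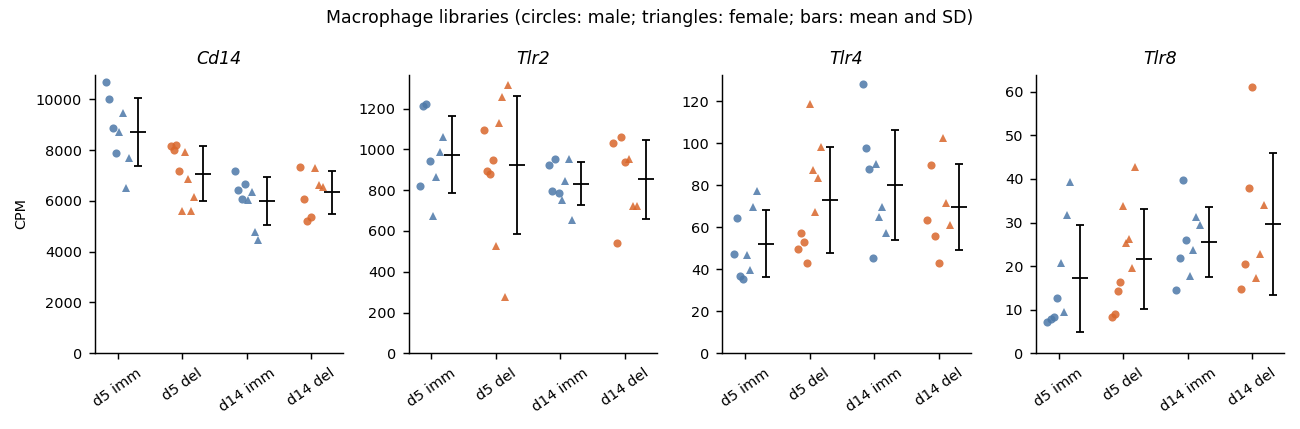
Levels (CPM) of Cd14, Tlr2, Tlr4 and Tlr8 in macrophage libraries by day and repair, with male (circles) and female (triangles) animals as points and the mean and SD as bars. Cd14 was highest at day 5 after immediate repair (mean 8715 CPM) and lowest at day 14 after immediate repair (5995 CPM).

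Levels in females and males were compared as well, since Tlr7, Tlr8 and Tlr13 are X-linked in the mouse. In every group the males were replicates 1 to 4 and the females had numbers from 5 to 9. Sex therefore cannot be told apart from anything else that went with the replicate number. In macrophages over both days 0 of 9 members were called by edgeR (2.26% of 8949 genes), 2 with an unadjusted p under 0.05, and DESeq2 called 1, Cd14. With day 5 alone 4 members passed, beside 25.1% of 8409 genes. At day 5, Tlr8 lay between 7.14 and 16.3 CPM in 8 males and between 9.54 and 42.7 CPM in 9 females, a log2 fold change of 1.23 (adjusted p = 0.000906). In that day 5 fit Tlr13 (0.45, adjusted p = 0.0200) and Tlr4 (0.45, adjusted p = 0.0384) were higher and Cd14 (-0.40, adjusted p = 0.01) lower in females. At day 14, fitted after the data were seen, Tlr8 lay between 14.6 and 61.1 CPM in males and between 17.3 and 34.0 CPM in females (-0.26), and none of the 4 was called, beside 0.0466% of 8589 genes. The difference between the days was not tested. In the Schwann cell gate 0 of 9 members were called by sex (0.0732% of 10923 genes) and in the stump 0 of 10 (0.0654% of 12229), by edgeR and by DESeq2. In the gate 2 had an unadjusted p under 0.05, Tlr7 (0.87) and Tlr3 (2.32), and with day 5 alone Tlr1 passed (-1.20, adjusted p = 0.0171, beside 7.02% of 9604 genes), and in the stump none did, the nearest being Tlr3 (0.34, unadjusted p = 0.0535).

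Against macrophages of the same animal, most receptors were lower in the Schwann cell gate, and Tlr1 was not at day 5. Of 7 receptors that passed the filter on low counts in the gate itself, 5 were lower and none higher at day 5 (16 animals), and 6 were lower and none higher at day 14 (15 animals). Tlr8 passed that filter only through the macrophage libraries, where it was high, so its direction was fixed by the filter, and with it the counts were 6 and 7 of 8. Among all genes 64.5% of 10074 were called at day 5 and 63.3% of 10596 at day 14, and 31.9% and 29.3% as lower in the gate. Cd14 is left out of these counts because the protein defined both gates: its mean was 619 CPM in the gate against 7747 in macrophages at day 5 and 492 against 6160 at day 14. The fits block on the animal.

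Tlr2 was lower in the gate in 16 of 16 animals at day 5 and in 15 of 15 at day 14, with means of 112 against 953 CPM and 84.1 against 842 CPM. Its log2 fold changes were -4.33 (SE 0.54, adjusted p = 1.27e-06) and -3.98 (SE 0.25, adjusted p = 2.05e-10). Tlr4 was lower in every animal too, with -3.23 (SE 0.66, adjusted p = 0.000316) and -2.59 (SE 0.28, adjusted p = 1.76e-07). Tlr8 was detected unevenly in the gate, with no count in 6 of 16 libraries at day 5 and 3 of 15 at day 14, and its fitted log2 values of -5.99 (SE 1.01) and -4.13 (SE 0.62) are given as a description with no test, because of the filter.

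Tlr7 and Tlr13 were also lower in the gate at both days. Tlr7 had means of 29.2 against 72.6 CPM at day 5 and 11 against 70.3 CPM at day 14, with log2 fold changes of -1.86 (SE 0.42, adjusted p = 0.000756) and -3.15 (SE 0.28, adjusted p = 1.45e-08). Tlr13 had means of 41.5 against 118 CPM and 66.4 against 111 CPM, with -2.12 (SE 0.48, adjusted p = 0.000786) and -1.33 (SE 0.25, adjusted p = 0.000135). At day 14, 2 of 15 animals had more Tlr13 in the gate. Tlr6 was at -1.02 (SE 0.50, adjusted p = 0.0853) at day 5, past the threshold without immediate replicate 1 (-0.80, adjusted p = 0.0276) or with DESeq2 (-1.03, adjusted p = 0.0242), and -2.13 (SE 0.67, adjusted p = 0.00976) at day 14.

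Tlr1 was called at day 14 only, and Tlr3 at day 5 only. Tlr1 was higher in the gate in 12 of 16 animals at day 5 (means 65.0 and 45 CPM, log2 fold change 0.22, SE 0.22, adjusted p = 0.400) and in 5 of 15 at day 14 (53.7 and 60.6 CPM, -0.61, SE 0.12, adjusted p = 0.000236). Tlr3 ranged from 0 to 24.9 CPM in the gate at day 5, with no count in 5 of 16 libraries, and its log2 fold change of -2.68 (SE 1.09, adjusted p = 0.0398) lost its call in 8 of 16 fits that left out 1 animal (immediate replicates 1, 2, 3 and 4 and delayed replicates 1, 3, 4 and 6), with adjusted p from 0.0507 to 0.0684, with no filter on low counts (adjusted p = 0.0530), with library size scaling (adjusted p = 0.0652) and without the animal block (-0.87, adjusted p = 0.295). At day 14 it was at -1.01 (SE 0.64, adjusted p = 0.180). Tlr9 was tested in neither, with means of 0.608 against 0.511 CPM at day 5 and 0.595 against 0.933 CPM at day 14.

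Of 78 pathway genes tested between the gates 25 were higher in the Schwann cell gate and 37 lower at each day. Among all genes 32.7% were higher and 31.9% lower at day 5, and 34.0% and 29.3% at day 14. A gene could pass the filter through 1 gate alone, which fixed its direction, so these counts are a description. For repair at day 5, 73 of the listed genes were tested in macrophages and 77 in the Schwann cell gate. Tlr12, at 7.86 at day 5, passed only through the Schwann cell gate, with no count in 16 of 17 macrophage libraries. All 5 endosomal proteases were lower in the Schwann cell gate at day 5 (Ctss -2.39, Ctsb -3.33, Lgmn -1.26) and 4 of 5 at day 14, and 4 of 5 adaptors were lower at each day (at day 5 Myd88 -0.86, Tirap -2.24 and Pik3ap1 -1.59). Of the transcription factors 6 of 9 were higher and 1 lower at each day, with Relb at 2.77, Irf8, a factor of dendritic cells, at 2.75 and Rel at 2.31 at day 5. Among accessory genes Ly96 (-1.82) and Unc93b1 (-2.14) were lower and the chaperone Cnpy3 (0.89) higher at day 5. Induced targets had 3 higher and 7 lower of 11 at day 5, where the chemokine Ccl5 was at 5.31 and Ptgs2 at -2.42, and 5 higher and 6 lower at day 14. Other roles were mixed at day 5, with 5 higher and 4 lower of 10 inhibitors, 4 and 4 of 10 endogenous ligands, and 3 and 6 of 17 kinases and ubiquitin ligases.

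Within the Schwann cell gate no member passed the threshold between repair groups. At day 5, 0 of 8 tested were called by edgeR and by DESeq2 (0.0% of 9604 genes by edgeR) and 1 had an unadjusted p under 0.05. That was Tlr2, which lay between 5.57 and 80.8 CPM (median 27.7) after immediate repair and between 9.94 and 530 CPM (median 154) after delayed repair, with a log2 fold change of 2.09 (SE 0.78, adjusted p = 0.855). Cd14 lay between 24.2 and 1065 CPM (median 133) and between 32.9 and 2084 CPM (median 787), with 1.35 (SE 0.76, adjusted p = 0.913). Without immediate replicate 4, the Cd14 value was 2.11 (SE 0.75, unadjusted p = 0.0127, adjusted p = 0.708). Tlr6 was at -0.39 (SE 0.74). The interaction of repair and cell type was called for 0 of 9 members at day 5 (0.0% of 10074 genes) and 0 of 9 at day 14 (0.0% of 10596), by edgeR and by DESeq2, with 1 and 0 at an unadjusted p under 0.05. At day 5 it was 1.92 for Tlr2 (SE 0.90) and 2.11 for Cd14 (SE 1.02). At day 14 within the gate 0 of 8 were called by either tool (0.0% of 10226 genes by edgeR) and none had an unadjusted p under 0.05, with values from -0.34 (Tlr4) to 1.03 (Tlr6).

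Cell type markers differed between the repair groups in the gate at day 5, none of them called. Schwann cell markers had negative fitted values in 9 of 10 (median log2 fold change -1.49), with sums between 216 and 1323 CPM after immediate and between 164 and 561 CPM after delayed repair, and all 5 fibroblast markers tested were negative (median -0.76). Their part in the Tlr2 and Cd14 values was not tested. The sum of macrophage markers lay between 241 and 3269 CPM after immediate repair and between 353 and 11168 CPM after delayed repair at day 5, and 11 of 12 had positive fitted values (median 1.36). The day 5 library with the highest sum, delayed replicate 9, held 2084 CPM of Cd14, 530 of Tlr2 and 66.8 of Tlr1, and the one with the lowest sum, immediate replicate 3, held 24.2, 18.9 and 54.6 CPM. With the macrophage marker level as a covariate, the log2 fold changes were -0.22 (SE 0.38) for Cd14 and 0.48 (SE 0.70) for Tlr2, neither called.

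**Figure D5:**
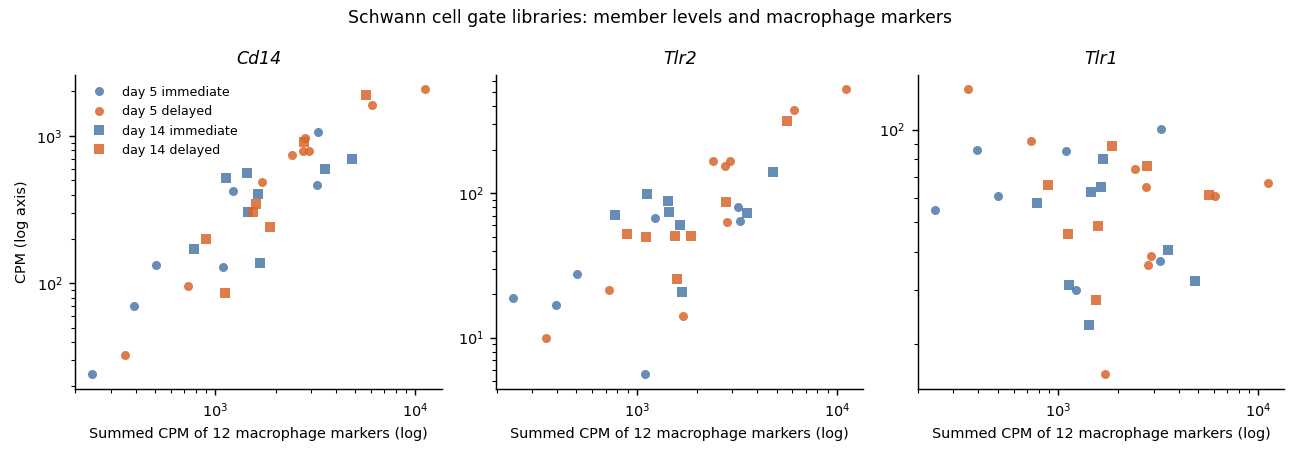
Cd14, Tlr2 and Tlr1 levels (CPM, log axis) in each Schwann cell gate library against the summed CPM of 12 macrophage markers (log axis), by day (shape) and repair (colour). At day 5 the library with the lowest marker sum also held the least Cd14 (24.2 CPM) and that with the highest sum the most (2084 CPM) and the most Tlr2 (530 CPM), while the lowest Tlr2 level (5.57 CPM) was in a library with a higher sum.

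Tlr7 fell in the gate from day 5 to day 14 after delayed repair. Its levels went from a median of 28.0 CPM (8.60 to 61.2) to 11.1 CPM (0.947 to 14.1), with all 7 day 14 libraries below the day 5 mean of 32 CPM, and the log2 fold change was -1.81 (SE 0.46, adjusted p = 0.0275). It was 1 of 8 members tested to be called, against 8.09% of 9961 genes. The call was lost without day 14 replicate 2 (adjusted p = 0.0535) or replicate 6 (adjusted p = 0.0590), and with all 4 groups of the gate in 1 fit (-1.82, adjusted p = 0.0597). With the macrophage marker covariate it was -1.46 (SE 0.41, adjusted p = 0.0345). Other cell type markers moved over the same days. Schwann cell markers had 10 of 10 positive fitted values, 4 of them called (median log2 fold change 1.83), and their sum went from between 164 and 561 CPM to between 527 and 3496 CPM. Of 5 fibroblast markers tested all had positive values and 1 was called (median 2.55), and of 10 dendritic cell markers 1 rose and 1 fell. Macrophage markers had 12 of 12 negative fitted values (median -1.24), none called. Plasmacytoid dendritic cell markers had 5 of 5 negative fitted values (median -1.31) and none called. Their sums lay between 23.2 and 780 CPM at day 5 and between 68.1 and 380 CPM at day 14. The part of Schwann cells, fibroblasts and dendritic cells in the result was not tested. Tlr2 (-1.11, SE 0.76) and Tlr13 (0.55, SE 0.34) did not pass.

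After immediate repair no member was called between the days in the gate (0 of 8 by edgeR and by DESeq2, none with an unadjusted p under 0.05, with 3.81% of 10016 genes called). Tlr7 went from a median of 20.3 CPM (0.0702 to 53.4) to 9.82 CPM (5.01 to 26.9), a log2 fold change of -1.23 (SE 0.66, adjusted p = 0.346), and Tlr6 was at -1.64 (SE 1.06, adjusted p = 0.448). Of the pathway genes 2 rose and 10 fell of 78 tested after immediate repair, and 0 rose and 18 fell of 78 after delayed repair. Among all genes 0.719% rose and 3.1% fell after immediate repair, and 3.34% and 4.75% after delayed repair. After immediate repair 1 of 10 Schwann cell and 1 of 6 fibroblast markers rose and 1 of 10 dendritic cell markers fell, while 5 of 5 plasmacytoid dendritic cell markers had negative values (median log2 fold change -1.39), none called, and the part of these cells was not tested. Those that fell after delayed repair included Irf8 (-1.11), the kinase Map3k8 (-0.75) and the ubiquitin ligase Traf3 (-0.83), the proteases Ctsl (-1.78), Ctsb (-1.11) and Lgmn (-0.89), and the target Ptgs2 (-1.66). The interaction of repair and day in the gate was called for 0 of 9 members by edgeR or DESeq2 (0.0% of 10923 genes by edgeR), 1 with an unadjusted p under 0.05, Tlr2 at -1.93 (SE 0.93).

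Across all 32 macrophage libraries, the genes whose log2 levels followed each member most closely differed between members, as a description over libraries that share days and repair groups. Cd14 was nearest to Smox (Pearson's r 0.932), Csf3 (0.900) and Ninj1 (0.867). Tlr8 was nearest to 4632428N05Rik (0.911) and Slc16a7 (0.903), and Tlr1 to Prdm1 (0.845), Filip1l (0.766) and Rbm12 (0.747). Tlr2 was nearest to Il17ra (0.794), Nfkb2 (0.780) and Tnfrsf1b (0.773), and Tlr7 to Irak2 (0.725), Tlr2 (0.719) and Dock10 (0.699). Tlr6 was nearest to Inpp5b (0.800), Cyth3 (0.790) and Spred1 (0.785), and Tlr13 to Clec4a1 (0.760), Arhgap27 (0.740) and Treml2 (0.732). Tlr4 followed Mau2 (0.741), Ehbp1l1 (0.694) and Akap8 (0.693), and Tlr3 followed Rbl1 (0.689) and Irf8 (0.676). Tlr9 was below the filter.

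The other rows of the family, Tlr5, Tlr11 and Tlr12, were low. In the stump Tlr5 averaged 10 CPM after immediate and 14.1 CPM after delayed repair (log2 fold change 0.51, adjusted p = 0.0798), while group means were 1.05 and 2.08 CPM for Tlr11 and 2.07 and 1.68 CPM for Tlr12. Tlr12 averaged 4.09 and 3.99 CPM in the Schwann cell gate at day 5 and had no count in 16 of 17 macrophage libraries of that day.

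In the mouse build GRCm38 (mm10) the genes lie at chr5:64924679-64933563 (Tlr1), chr3:83836272-83841767 (Tlr2), chr8:45395665-45411080 (Tlr3), chr4:66827584-66930284 (Tlr4), chr5:64952031-64960097 (Tlr6), chrX:167304929-167330558 (Tlr7), chrX:167242696-167264329 (Tlr8), chr9:106222598-106226883 (Tlr9), chrX:106143204-106160493 (Tlr13) and chr18:36725067-36726798 (Cd14), all annotated as protein coding. Counts cover their exons, whose merged length runs from 1641 bases (Cd14) to 5467 bases (Tlr4).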

How the data were processed

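RNA was sequenced from sorted macrophages, the sorted Schwann cell gate and distal stump. The authors trimmed reads with cutadapt 1.8, removed ribosomal reads of the stump, aligned to mm10 with TopHat2 2.1.1 and the UCSC genes, and deposited estimated counts per gene that are not normalized. The program that wrote them is not given in the sources used here. Between 0.951% and 1.18% of values were not whole and were rounded.

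CPM used the library total. A gene was tested if it reached 5 CPM in 6 or more libraries of the comparison, with edgeR 4.0.16 (R 4.3.3) after TMM scaling, without covariates for repair and day, and with the animal as a block between the cell types, since both were sorted from the same mouse. Standard errors are the log2 fold change over the square root of F. Alternatives were DESeq2 1.42.0, library size scaling, no filter, a term for sex, a block on replicate number, 1 fit over all 4 groups and each library left out. Lengths are merged GENCODE exons of GRCm38. Replicates were separate animals, and of 3081 library pairs 0 held identical counts. Members, gene lists and markers were chosen with earlier results of these data known. Named pathway genes are up to 3 per list with the smallest p among those called, or the smallest p where none was. Some genes with similar patterns are not reported here. On simulated counts at the stump's depth, 89% of 2-fold and 96% of 4-fold changes were recovered, against 38% and 70% for repair in the Schwann cell gate at day 5. Recovery was lowest between the days in that gate after immediate repair, at 11% and 64%, and was 35% and 77% after delayed repair.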

Additional observations from a re-analysis of the deposited data

Results flagged for a closer look

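Of 98 groups of 7 to 9 libraries checked for a single library far from the rest, 7 held one. Chance alone marks about 1 in 20 groups. In the stump after immediate repair, replicate 6 held the highest Tlr3 level at 34.7 CPM. The other 6 were low values in the Schwann cell gate. Tlr2 was at 20.6 CPM in replicate 5 of day 14 after immediate repair. Tlr4 was at 0 CPM in replicate 1 of day 5 after delayed repair. Tlr6 was at 0 CPM in replicate 1 of day 5 after immediate repair and in replicate 1 of day 14 after delayed repair. Tlr7 was at 0.0702 CPM in replicate 3 of day 5 after immediate repair and at 0.947 CPM in replicate 1 of day 14 after delayed repair.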

How the results depend on the processing

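In the stump 8 members were called, against 5 with the macrophage marker covariate and 7 to 9 when single libraries were left out. With the replicate block 5 were called there, without Tlr3 (0.47, adjusted p = 0.0519), Tlr7 (0.75, adjusted p = 0.0842) and Tlr13 (0.76, adjusted p = 0.0531). The block moved Tlr2 between repair groups in the gate at day 5 from 2.09 to 1.01 (SE 0.71, unadjusted p = 0.191). The replicate numbers pair no samples by the labels, but numbers 1 to 4 were male and 5 to 9 female. Same-numbered libraries thus shared sex, and the block takes up sex as well. These libraries deviated together (r over 0.1) in 1 of 7 pairs in the stump. In macrophages between repair groups they did so in 7 of 8 at day 5 and 6 of 7 at day 14. In the other comparisons it was fewer pairs, never all. In macrophages after immediate repair 1 member changed between the days, against 2 with DESeq2, sex as a covariate or the replicate block (Tlr2 added), 2 with library size scaling (Tlr4 added) and 1 to 2 without single libraries. In the Schwann cell gate after delayed repair the count of 1, Tlr7 between the days, became 0 with the replicate block (-1.71, adjusted p = 0.0599). It also became 0 with 1 fit over all 4 groups, and 0 to 1 without single libraries. Between cell types at day 5 the 6 receptors, Tlr8 included, became 5 to 6 without single animals. By sex, 0 became 1 in macrophages with DESeq2 and 4 with day 5 alone, and 1 in the gate with day 5 alone. The sign turned for Cd14 in the gate between repair groups with the macrophage covariate (-0.22), and by sex at day 14 alone for Tlr4 (-0.085), Tlr8 (-0.26) and Tlr13 (-0.35). The cause was not tested. Among 102 member values not given singly, 111 of 1265 alternatives changed the sign and 1 changed a call. Tlr9 was not tested in sorted cells, where it was below the 5 CPM filter. A difference under 0.258 CPM, the level of 3 counts in the smallest sorted library, was not detectable at this depth.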
